A study of Mus musculus with 12 samples.

Results

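The 12 libraries of this study were compared as 6 from lesioned against 6 from unlesioned mouse striatum, with the L-DOPA treatment as a covariate, to ask which genes differ between the sides in the same way after a single dose and after repeated dosing. Of 52169 gene symbols in the deposited count table, each represented by its most abundant transcript, 20664 had enough reads to be tested. A gene was kept, and is called steady here, when it met 2 conditions: an adjusted p under 0.05 for the common lesion effect, and all 3 lesioned libraries on the same side of all 3 unlesioned libraries in each treatment. In all 2396 of the 20664 genes (11.6%) were steady, 1139 of them higher (5.51% of the genes tested) and 1257 lower (6.08%) in the lesioned striatum. A small steady gene is one of these whose common change was under 1.5 fold, and there were 1562 (7.56%).

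All animals were female C57BL/6J mice that had received desipramine, which shields noradrenergic neurons, and a 6-OHDA injection into the right medial forebrain bundle. After recovery they were given L-DOPA at 10 mg/kg together with benserazide at 7.5 mg/kg, an inhibitor of L-DOPA breakdown outside the brain. One set received a single dose (acute L-DOPA) and the other a daily dose for 9 days (chronic L-DOPA), and both were killed 1 h after the last dose. Total RNA from punches of the right, lesioned striatum and of the left, unlesioned striatum gave 3 libraries in each of 4 groups. Every library, the unlesioned ones included, therefore comes from a mouse that had received L-DOPA, and no group without L-DOPA entered the comparison, so that the loss of dopamine and the response of the denervated side to L-DOPA cannot be told apart. The labels count 12 mice for the 12 libraries, while the study describes the unlesioned side as a control within the same mouse, and its sequencing methods state no pairing. The p-values measure the spread between these samples.

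Medium spiny neurons make up most of the striatum and form a direct pathway, with D1 dopamine receptors, substance P and dynorphin, and an indirect pathway, with D2 receptors and enkephalin. 6-OHDA destroys the dopaminergic fibres that reach them, and the denervated D1 neurons respond strongly to L-DOPA through cAMP, protein kinase A and the Erk and Msk kinases. These kinases act on transcription factors bound at cAMP response elements and serum response elements, and the immediate early genes are their best known targets.

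Each library held between 18373868 and 36492201 reads over the chosen transcripts. The tissue was checked by markers. Adcy5, the main striatal adenylyl cyclase, lay between 1231 and 1781 CPM (counts scaled to the effective size of each library) in all 12 libraries, and Drd2 between 279.9 and 479 CPM. Slc6a3, the dopamine transporter of the nigral neurons, had between 1 and 8 reads per library, too few to check the lesion, since its mRNA resides in the midbrain. Glutamatergic genes of the cortex varied between libraries. Slc17a7 was at 111, 50.6 and 48.0 CPM on the unlesioned and 58.0, 7.84 and 5.89 CPM on the lesioned side after acute L-DOPA, and at 86.6, 19.1 and 156 and 85.7, 6.37 and 6.20 CPM after chronic L-DOPA. The first lesioned library of each treatment was within the range of the unlesioned libraries and the others were lower. Of the 10 cortical markers, 0 were steady and without Nrgn, which medium spiny neurons also express, their summed level was 197 to 277 CPM in the acute unlesioned, 143 to 207 in the acute lesioned, 142 to 318 in the chronic unlesioned and 117 to 202 in the chronic lesioned libraries. One chronic unlesioned library, replicate 2, held Ttr, the major transcript of choroid plexus, at 2161 CPM against at most 7.17 CPM in the other 11. Without that library 2769 genes were steady, and without any other single library 2369 to 2737, against 2396 with all 12. The order rule is easier to meet with a library left out. In such bulk tissue, fewer cells of a type and less RNA per cell cannot be told apart.

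Promoters of 4 of the genes that rose most are shown first, because the cAMP response element is searched for there. RefSeq (GRCm38.p6) holds 1 window for Areg, Fosb, Atf3 and Fos, and the 250 bases before the annotated start are printed on the strand of the gene. Capitals mark the cAMP response element TGACGTCA or its core TGACG, on either strand, a full element also counting as 2 cores:
Areg, chr5:91139349-91139598, plus strand: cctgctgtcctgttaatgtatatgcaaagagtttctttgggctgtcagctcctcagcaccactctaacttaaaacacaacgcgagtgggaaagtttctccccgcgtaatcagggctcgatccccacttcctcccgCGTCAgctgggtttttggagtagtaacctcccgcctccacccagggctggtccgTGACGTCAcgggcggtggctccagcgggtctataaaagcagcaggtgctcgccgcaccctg
Fosb, chr7:19310046-19310295, minus strand: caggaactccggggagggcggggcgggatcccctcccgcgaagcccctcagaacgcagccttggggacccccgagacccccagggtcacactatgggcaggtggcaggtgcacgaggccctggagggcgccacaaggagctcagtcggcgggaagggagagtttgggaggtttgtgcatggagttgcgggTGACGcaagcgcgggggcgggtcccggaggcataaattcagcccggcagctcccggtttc
Atf3, chr1:191183334-191183583, minus strand: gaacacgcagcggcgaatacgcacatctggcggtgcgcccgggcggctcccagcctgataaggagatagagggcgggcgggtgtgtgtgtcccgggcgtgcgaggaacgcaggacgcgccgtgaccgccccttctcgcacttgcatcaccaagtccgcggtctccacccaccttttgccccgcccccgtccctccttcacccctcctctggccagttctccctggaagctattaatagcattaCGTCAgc
Fos, chr12:85473640-85473889, plus strand: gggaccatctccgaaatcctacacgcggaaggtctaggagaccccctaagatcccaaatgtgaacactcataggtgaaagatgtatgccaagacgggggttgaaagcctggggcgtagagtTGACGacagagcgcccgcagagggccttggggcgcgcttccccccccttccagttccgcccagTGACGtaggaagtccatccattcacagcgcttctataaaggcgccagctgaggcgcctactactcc

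Areg held 1 full element and 3 cores, Fosb 1 core, Atf3 1 and Fos 2, whereas the first listed windows of Egr2 and Nfkbid, which have several starts, held none of them. None of these 6 windows held the AP-1 motif TGANTCA or a serum response element. The same search ran over 300-base windows, which add 50 bases after the start, for genes with ordinary symbols off chromosome 18. The full element was in 5.39% of 890 promoters of steady genes that were higher, in 2.00% of 1048 promoters of steady genes that were lower, in 2.88% of 13870 promoters of all genes tested and in 1.79% of all 32851 promoters in the table. The core was in 41.1%, 25.5%, 29.0% and 20.8% of the same sets. AP-1 motifs were in 6.29%, 5.63%, 5.24% and 7.81%, and the serum response element in 1.69%, 1.53%, 1.33% and 1.63%. Among the small steady genes that were higher, 4.76% of 504 promoters held the full element and 39.5% the core. AP-1 motifs were in 5.36% of these 504 and the serum response element in 1.19%. Among steady genes at least 2 fold higher, 7.58% of 211 promoters held the full element and 44.5% the core. AP-1 motifs were in 9.00% of these 211 and the serum response element in 3.32%, or 7 promoters. These shares describe letters in a window, and genes with several starts enter more than once.

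By size, the 2 directions differed. The median change of the steady genes that were higher was 0.62 on the log2 scale, or 1.53 fold, and 109 of them were over 4 fold higher, 230 between 2 and 4 fold, 259 between 1.5 and 2 fold and 541 below 1.5 fold. The steady genes that were lower had a median of -0.35, or 1.28 fold. Only 3 of them fell over 4 fold, 43 fell 2 to 4 fold, 190 fell 1.5 to 2 fold and 1021 fell by less than 1.5 fold. Thus 541 small steady genes were higher (2.62% of the genes tested) and 1021 lower (4.94%). With library totals in place of trimmed-mean scaling, 800 steady genes were higher and 2117 lower, and 301 small steady genes higher and 1784 lower. The balance of directions depended on scaling. With trimmed-mean scaling 4057 genes were called for the common effect, whatever their order (19.6% of the genes tested, 2073 or 10.0% higher and 1984 or 9.6% lower), and 51.1% of them were higher. With library totals alone 4878 genes were called and 31.8% of those were higher. Among the 14596 genes with known GC content, 3251 were called with the trend in GC and length kept, 48.6% of them higher, and 3797 with it removed, 37.5% of them higher. The median change over all genes tested was 0.01 with trimmed-mean scaling and -0.05 with library totals. The genes that were lower had longer transcripts, with a median of 3519 bases against 2639 for those that were higher and 2673 for all tested. Steady genes were on every chromosome, and on the autosomes and the X chromosome their share ran from 10.1% of the genes tested on chromosome 9 to 14.5% on chromosome 19. Of the steady genes, 58.1% had a chosen transcript that overlaps a transcript of another symbol, against 59.8% of all genes tested, and a read in such a stretch may count for both.

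The immediate early transcription factors, which respond within minutes without new protein synthesis, held the largest share of steady genes. All 24 were called higher and 23 were steady, with a median change of 2.53 over the list against 0.01 over all genes tested. The exception was Klf10, called higher at 1.03 without the separation of every library. Fosb (chr7:19888045-19895394 in mm9, the build of the table), a partner of Jun proteins in AP-1, was at 39.6, 44.6 and 43.6 CPM on the unlesioned side and 1013, 1089.7 and 1142 CPM on the lesioned side after acute L-DOPA, and at 23.8, 20.4 and 22.0 and 692, 656 and 698 CPM after chronic L-DOPA. Every lesioned library was thus far above every unlesioned library of both treatments, with a common log2 fold change of 4.80 ± 0.08 (adjusted p = 1.9e-14, edgeR quasi-likelihood test with Benjamini-Hochberg adjustment, as throughout). Fos rose from 32.1, 37.9 and 31.8 to 778, 706 and 646 CPM after acute and from 17.0, 20.2 and 16.5 to 513, 336 and 471 CPM after chronic L-DOPA, by 4.50 ± 0.12 on the log2 scale. Both Fos and Fosb stood lower in the chronic than in the acute libraries on each side. Egr2, a zinc finger factor, was at 29.9, 31.5 and 35.5 against 559, 532 and 564 CPM after acute L-DOPA and 16.8, 20.4 and 13.9 against 538, 411 and 460.1 CPM after chronic L-DOPA, a rise of 4.43 ± 0.14. Egr1, at 348 to 542 CPM on the unlesioned side, rose by 2.17 ± 0.08.

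Atf3, a stress-responsive partner of the AP-1 family, was nearly silent on the unlesioned side, at 2.46, 3.55 and 2.06 CPM after acute and 0.918, 1.16 and 1.03 CPM after chronic L-DOPA. On the lesioned side it was at 77.6, 81.4 and 53.6 CPM and 31.7, 20.3 and 35.7 CPM, a common rise of 4.75 ± 0.18. Jun, which pairs with Fos proteins, rose by 3.71 ± 0.12, from 25.0 to 38.3 CPM on the unlesioned side to 334 to 491 CPM on the lesioned side. An antisense transcript, BC042782, overlaps Jun, and the counting is not stated to separate strands. Btg2, an antiproliferative cofactor, rose by 3.79 ± 0.18, and its second chronic lesioned library, at 102 CPM, was below the other 2, at 218 and 208 CPM. Smaller steady rises in the list were those of Jund, by 0.89, Ier5, by 0.67, and Ier2, by 1.10.

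**Figure D1:**
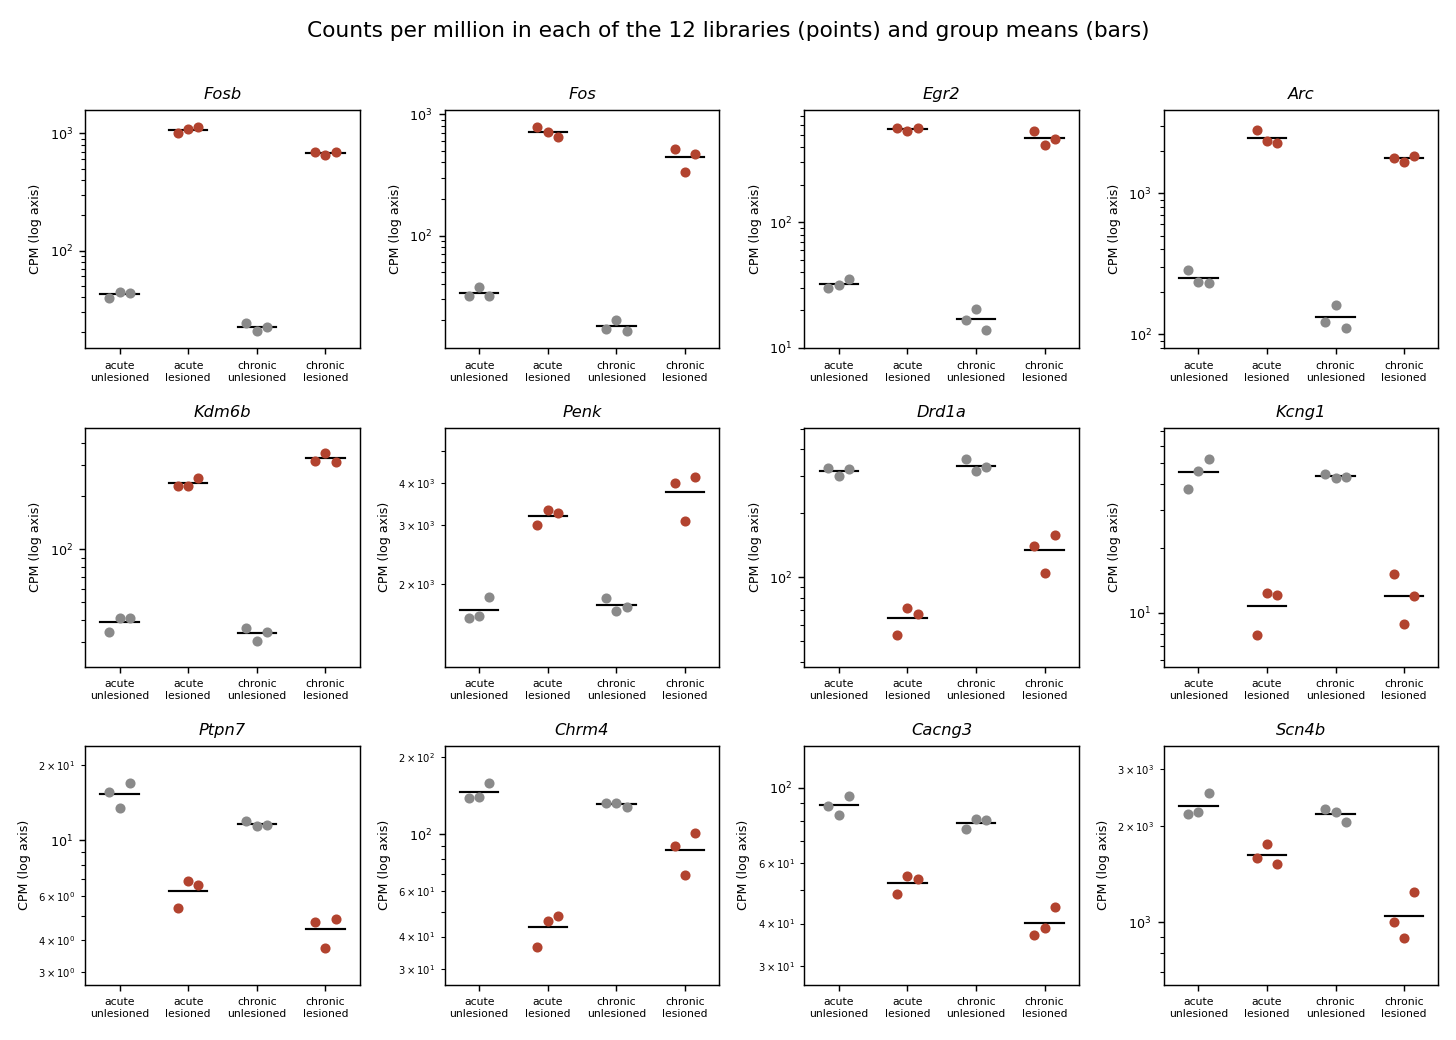
CPM on a log axis, 1 point per library and a bar at the mean of each group of 3, for 12 steady genes; unlesioned libraries are grey and lesioned libraries red. Every lesioned point lies beyond every unlesioned point of its treatment, above it for Fosb, Fos, Egr2, Arc, Kdm6b and Penk and below it for Drd1a, Kcng1, Ptpn7, Chrm4, Cacng3 and Scn4b. The rule for steady genes fixes this separation.

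Among 26 activity-induced synaptic and secreted effectors, 19 were steady and higher and 0 steady and lower, with a list median of 1.44. Arc (chr15:74499513-74503000), which removes AMPA receptors from active synapses, was at 285, 235 and 229.5 against 2792, 2351 and 2266 CPM after acute and 122, 162 and 111 against 1778, 1658 and 1848 CPM after chronic L-DOPA. The common rise was 3.52 ± 0.12, with 3.30 after acute and 3.74 after chronic L-DOPA. Tiparp, a mono-ADP-ribosyltransferase, rose by 2.97 ± 0.11, and the growth arrest factors Gadd45b and Gadd45g rose by 3.20 ± 0.14 and 2.65 ± 0.11. Homer1, the postsynaptic scaffold gene, was at 121 to 194 CPM on the unlesioned and 479 to 861 CPM on the lesioned side and rose by 2.05 ± 0.15. Not every activity gene rose. Bdnf, a neurotrophin that the cortex supplies to the striatum, was at 2.73, 0.587 and 1.35 against 0.685, 0.166 and 0.352 CPM after acute and at 1.31, 0.682 and 3.09 against 1.21, 0.571 and 0.747 CPM after chronic L-DOPA, and it was called lower at -1.44 ± 0.45 (adjusted p = 0.0365). Its groups overlapped and it was highest in the same pair of libraries as Slc17a7, and the part of the cortical markers in this result was not tested. Nrn1, Sgk1 and Pcdh8 were not steady, with changes of -1.14, -0.02 and 0.21.

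Areg, a ligand of the epidermal growth factor receptor, was at 0.270, 0.483 and 0.354 CPM in unlesioned and 3.75, 3.20 and 3.34 CPM in lesioned libraries after acute L-DOPA, and at 0.393, 0.201 and 0.354 and 27.6, 48.5 and 28.6 CPM after chronic L-DOPA. It had the largest common rise of steady genes at 1 CPM or more, 5.42 ± 0.45, with the chronic lesioned libraries far above the acute ones. Epha2, an ephrin receptor, showed the same shape, from 1.86, 2.38 and 1.56 to 5.84, 6.24 and 5.36 CPM after acute and from 0.961, 0.963 and 1.35 to 51.3, 66.6 and 50.6 CPM after chronic L-DOPA. Snx31, a sorting nexin, was at 0.242 to 0.740 CPM on the unlesioned side, at 0.865, 1.27 and 1.19 CPM in the acute lesioned and at 13.8, 14.3 and 19.8 CPM in the chronic lesioned libraries. The cytokine gene Tslp was at 3.14, 2.98 and 2.15 CPM in the acute lesioned and 0.877, 0.791 and 1.23 CPM in the chronic lesioned libraries, above 0.311 CPM or less on the unlesioned side. Nfkbid, a nuclear inhibitor of NF-kappaB, rose by 4.09 ± 0.19 and Arl5b, an ARF-like small GTPase, by 3.77 ± 0.09. Arl5b rose from 22.1 to 28.4 CPM on the unlesioned side to 278 to 384 CPM on the lesioned side, and an unnamed transcript, AK143145, shares its strand and position.

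The inhibitors of the MAP kinases moved in both directions. Of 17 genes tested, 4 were steady and higher and 3 steady and lower, with a list median of 0.08. Dusp1, a nuclear phosphatase of the MAP kinases, was at 46.2, 43.1 and 44.6 against 242, 216 and 228 CPM after acute and 35.9, 40.2 and 32.5 against 417, 358 and 479 CPM after chronic L-DOPA. Dusp6, which acts on Erk in the cytoplasm, was at 50.9, 54.0 and 54.6 against 240.2, 349.6 and 293 CPM and at 37.4, 39.4 and 37.9 against 102, 71.5 and 106 CPM. Both rose in each treatment, by 2.94 ± 0.18 and 1.89 ± 0.19, but Dusp1 was the higher after chronic and Dusp6 the higher after acute L-DOPA. Dusp14 and Dusp5 rose by 1.30 ± 0.17 and 2.86 ± 0.52. The Ras pathway inhibitor Spred2 was lower, at 83.0, 74.3 and 84.3 against 54.2, 51.6 and 60.0 CPM and 82.8, 84.6 and 86.0 against 67.2, 61.0 and 58.9 CPM, a steady change of -0.49 ± 0.06, and Dusp7 and Spred1 fell by 0.51 and 0.46. Of 17 Erk, Rsk and Msk kinases and Ras activators only Rps6ka5, which encodes Msk1, was steady. It was at 59.4, 63.3 and 64.8 against 48.0, 49.0 and 41.7 CPM after acute and 70.5, 57.9 and 66.0 against 45.9, 41.2 and 46.1 CPM after chronic L-DOPA. The log2 fold change of Rps6ka5 was -0.49 ± 0.06 (adjusted p = 0.000102), and that of Mapk3, encoding an Erk kinase, was -0.01 and did not pass the test.

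Of 16 neuropeptide precursors, 4 were steady, all higher. Penk (chr4:4060684-4065935), which encodes enkephalin and marks the indirect pathway, was at 1592, 1605 and 1828 CPM on the unlesioned and 3008, 3334 and 3269 CPM on the lesioned side after acute L-DOPA, and at 1815, 1670.0 and 1708 and 4019, 3087 and 4192 CPM after chronic L-DOPA. The groups were far apart in both treatments and the common change was 1.03 ± 0.08 (adjusted p = 4.26e-07), with an interval of the treatment difference of -0.12 to 0.49. Transcripts of Sdr39u1 and A830012C17Rik are annotated over the Penk interval in the table. Tac1, which encodes substance P in direct pathway neurons, was at 244, 244 and 235 against 455, 476 and 408 CPM and 327, 228 and 265 against 476, 344 and 465 CPM, a rise of 0.77 ± 0.10. The smallest chronic lesioned value of Tac1, 344 CPM, was close to the highest chronic unlesioned value, 327 CPM. Nts, encoding neurotensin, rose by 1.71 ± 0.23 from 2.57 to 5.56 CPM to 6.20 to 23.1 CPM, and Npy, made by a class of interneurons, by 0.49 ± 0.10. Npy moved little after acute L-DOPA, from 52.5, 51.2 and 53.6 to 56.4, 59.6 and 59.5 CPM, and more after chronic L-DOPA, from 59.6, 53.3 and 55.9 to 95.4, 91.7 and 110.2 CPM. Pdyn, the dynorphin precursor, is outside the steady set: it was lower in every lesioned library after acute L-DOPA, at 82.5, 85.0 and 90.0 against 151, 136 and 150.0 CPM, and higher after chronic L-DOPA, at 933, 861 and 860.4 against 159.7, 119 and 188 CPM. Pdyn was 1 of 404 genes (1.96% of those tested) whose lesioned and unlesioned libraries were fully apart in both treatments but on opposite sides, against 2552 (12.3%) on the same side.

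Proteins that sort and cleave peptide precursors are stored with the peptides in dense core vesicles. Of 11 granin and processing genes 8 were steady, all higher, 4 of them small, although 6 of the 8 passed with library totals and 6 of 8 with the GC trend removed. Pcsk1, a prohormone convertase, was at 14.3, 13.6 and 10.6 against 29.2, 29.7 and 20.5 CPM and 11.4, 8.47 and 13.3 against 28.4, 26.6 and 23.7 CPM, a rise of 1.14 ± 0.12 with acute and chronic values of 1.04 and 1.23. The granin genes Vgf, Scg2 and Chga rose by 1.03 ± 0.10, 1.27 ± 0.16 and 1.22 ± 0.17. These 3 rose less after acute than after chronic L-DOPA: Scg2 went from 339.8, 305 and 314 to 507, 539 and 555 CPM and from 443, 351 and 404 to 1637, 1268 and 1276 CPM. Cpe, Scg3, Chgb and Pam made up the small changes, from 0.15 to 0.33.

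**Figure D2:**
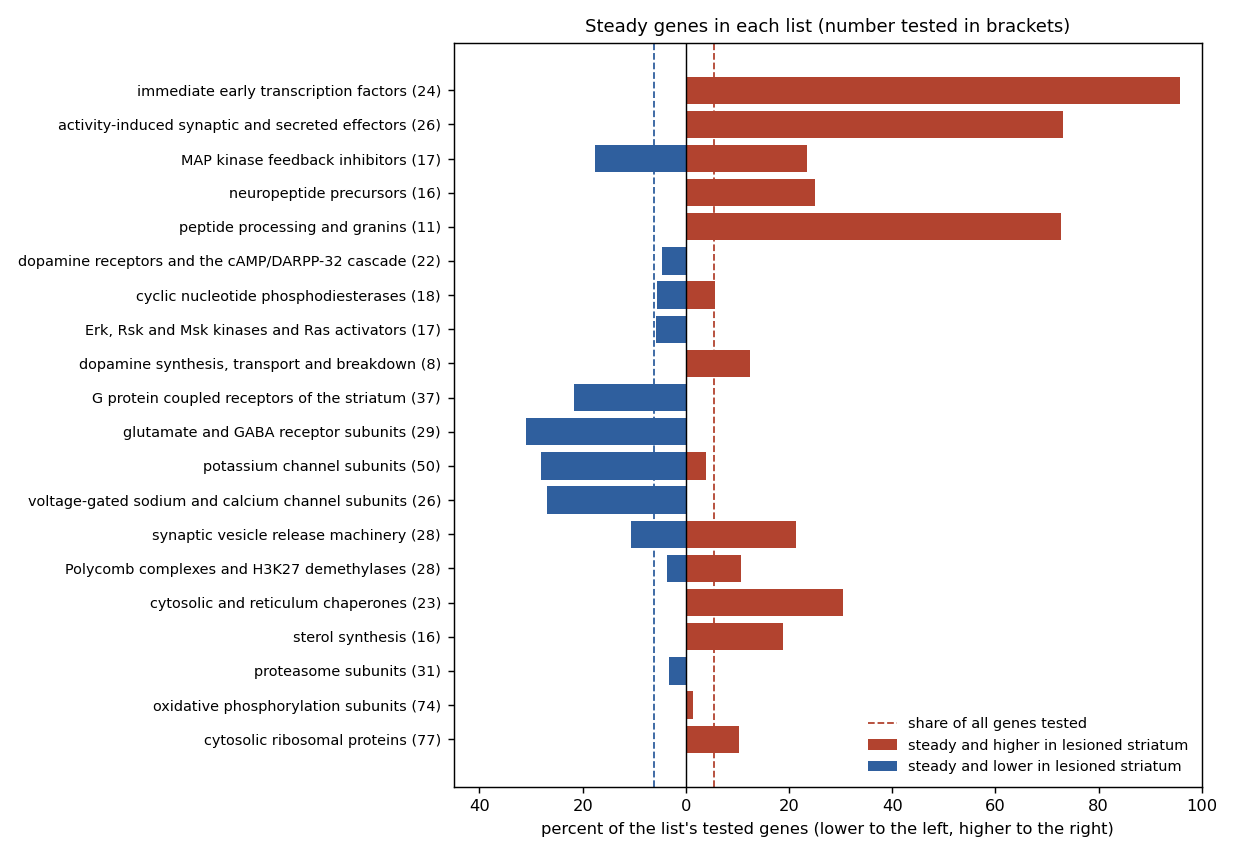
Percent of the tested genes of each of 20 lists that were steady, higher to the right in red and lower to the left in blue, with the number tested in brackets; dashed lines mark 5.51% and 6.08%, the shares among all 20664 genes tested. The immediate early factors, effectors and granins extend farthest to the right, and the receptor and channel lists to the left.

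Drd1a and Chrm4, receptors of the direct pathway, were lower. Of 22 genes of the dopamine receptors and the cAMP cascade, only Drd1a (chr13:54146552-54151027), the D1 receptor, was steady: it was at 327, 299.7 and 323 CPM on the unlesioned side against 53.4, 71.6 and 67.5 CPM on the lesioned side after acute, and at 361, 315 and 329.7 against 141, 105 and 158 CPM after chronic L-DOPA. The common change was -1.81 ± 0.17 (adjusted p = 3.76e-06), and the lesioned libraries were lower after acute than after chronic L-DOPA without overlap. Drd2 was higher in acute lesioned libraries, 440.3, 479 and 424 against 361, 371 and 412 CPM, but overlapped after chronic L-DOPA and did not pass the test (log2 fold change 0.17 ± 0.07, adjusted p = 0.111). Gnal and Adcy5, the G protein subunit and cyclase that D1 receptors use, had log2 fold changes of 0.07 ± 0.08 and -0.11 ± 0.07, neither passing the test. Ppp1r1b, which encodes DARPP-32, was called lower at -0.26 ± 0.09 (adjusted p = 0.0470), but its groups overlapped and it was not steady. In all 2 of the 22 genes were called higher and 3 lower, against 10.0% and 9.6% of all genes tested. Chrm4, the inhibitory muscarinic M4 receptor of direct pathway neurons, was at 139, 140.2 and 158 against 36.4, 46.2 and 48.2 CPM and 132, 133 and 127 against 90.2, 69.5 and 102 CPM, a change of -1.16 ± 0.18.

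The 8 markers of D1 medium spiny neurons held 6 steady genes. Drd1a, Chrm4, Slc35d3, Ebf1 and Eya1 were lower and Tac1 was higher. The summed level of the 8, which includes Pdyn, was 909 to 966 against 661 to 726 CPM after acute and 883 to 1069 against 1442 to 1710 CPM after chronic L-DOPA, so that it went opposite ways in the 2 treatments without overlap. Slc35d3, which helps carry D1 receptors to the cell surface, was at 49.7, 47.5 and 58.8 against 15.2, 20.8 and 22.7 CPM after acute and 47.4, 43.6 and 49.1 against 37.8, 27.6 and 36.7 CPM after chronic L-DOPA. Ebf1, a transcription factor of direct pathway neurons, was at 16.2, 19.2 and 18.3 against 11.0, 11.9 and 10.4 CPM and 17.2, 16.7 and 19.8 against 9.32, 8.39 and 10.4 CPM, a change of -0.81 ± 0.08 with values of -0.70 and -0.94 in the 2 treatments. Of 8 markers of D2 medium spiny neurons, Sp9 and Penk were steady and higher and Gpr52 steady and lower. Sp9, a transcription factor required for D2 neurons, was at 27.5, 25.3 and 27.3 against 44.7, 50.4 and 50.3 CPM and 28.1, 22.6 and 25.5 against 48.8, 49.3 and 49.9 CPM, with a rise of 0.91 ± 0.06. Of the 9 markers shared by medium spiny neurons 0 were steady and 4 were called lower. These marker values were described after they had been seen.

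Among 37 G protein coupled receptors of the striatum, 8 were steady and lower and 0 steady and higher, with a list median of -0.19. Adra2c, an alpha-2 adrenoceptor abundant in medium spiny neurons, was at 68.2, 69.1 and 87.1 against 39.5, 43.1 and 44.5 CPM and 75.0, 65.9 and 82.9 against 36.7, 28.8 and 45.5 CPM, a change of -0.91 ± 0.10. Chrm1, the M1 receptor, was at 179, 167 and 189.7 against 118, 127 and 122.6 CPM and 169, 168 and 179 against 135, 115 and 132 CPM, a change of -0.49 ± 0.06 (adjusted p = 3.48e-05). Grm8, a metabotropic glutamate receptor, fell by 0.67 at levels of 3.95 to 9.23 CPM. Htr6, Grm5, Htr1d and Gpr52 fell by 0.80, 0.42, 0.39 and 0.43. Gpr139, an orphan receptor, was not in the list but had a change of -1.92 ± 0.20, from 3.67, 4.11 and 5.28 to 0.973, 1.44 and 0.879 CPM and from 2.97, 3.97 and 2.90 to 0.823, 0.527 and 1.41 CPM. Adra2b, another adrenoceptor, had at most 3.15 CPM in any library and a change of -1.31 ± 0.20.

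The steady genes among glutamate and GABA receptor subunits and ion channels were mostly lower, and mostly by less than 1.5 fold. Of 29 glutamate and GABA receptor subunits 9 were steady and lower and 0 higher. Of 50 potassium channel subunits 14 were steady and lower and 2 higher, and of 26 genes listed as voltage-gated sodium and calcium channel subunits 7 were lower and 0 higher. Those 7 were Scn2a1, Scn8a, Scn2b, Scn3b and Scn4b, of sodium channels, with Cacng2 and Cacng3, of a family that traffics AMPA receptors. No pore gene of a calcium channel was steady. The list medians were -0.18, -0.20 and -0.21. Kcna4 (chr2:107130746-107138661), a pore subunit of fast transient potassium current, was at 92.6, 84.3 and 80.6 against 52.9, 48.3 and 43.4 CPM after acute and 93.7, 85.0 and 82.0 against 57.9, 51.8 and 52.5 CPM after chronic L-DOPA, so that the lowest unlesioned library of all, 80.6 CPM, was above the highest lesioned one, 57.9 CPM. The log2 fold change of Kcna4 was -0.76 ± 0.06 (adjusted p = 1.64e-06). Kcng1, a modulatory subunit, was at 37.6, 45.8 and 52.1 against 7.86, 12.4 and 12.1 CPM and 44.5, 42.3 and 43.1 against 15.1, 8.88 and 11.9 CPM, the steepest fall among the channel genes at -1.97 ± 0.13, with the antisense transcript AK133086 over it. Kcnv1 and Kcnb2 fell by 0.77 and 0.74. Cacng3, an auxiliary subunit that traffics AMPA receptors, was at 88.2, 83.4 and 94.7 against 48.8, 55.1 and 54.0 CPM and 75.7, 80.7 and 80.5 against 37.1, 38.9 and 44.7 CPM, a change of -0.86 ± 0.06 (adjusted p = 4.19e-07). Scn4b, the sodium channel beta subunit that is abundant in medium spiny neurons, was at 2172, 2202 and 2539 against 1587, 1754 and 1518 CPM and 2264, 2203 and 2049 against 1003, 894 and 1245 CPM, a change of -0.78 ± 0.11.

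Among the receptor subunits, Grin2b of the NMDA receptor was at 38.1, 38.4 and 43.6 against 31.6, 26.3 and 22.3 CPM and 44.0, 41.8 and 73.5 against 36.9, 30.1 and 27.6 CPM. Its chronic unlesioned replicate 3, which also had the highest Slc17a7, stood above the other 2, and the common change was -0.67 ± 0.14. Gabrb2, Gabbr2 and Gabrg3, of the GABA-A and GABA-B receptors, fell by 0.32, 0.35 and 0.35, and Gria2, of the AMPA receptor, by 0.35. The cortical marker level moved with these lists. With that level as a covariate, an alternative added after the data were seen, 2 of the 9 steady receptor subunits, 8 of the 16 steady potassium channel subunits and 6 of the 7 steady genes of the sodium and calcium channel list were still called. Grin2b was then at -0.40 (adjusted p = 0.0654) and Gabrg3 at -0.29 (adjusted p = 0.0522), while Kcna4, Kcnv1, Cacng3 and Scn4b were still called. Of all 2396 steady genes, 1551 were still called with this covariate, and all 2396 kept their direction.

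**Figure D3:**
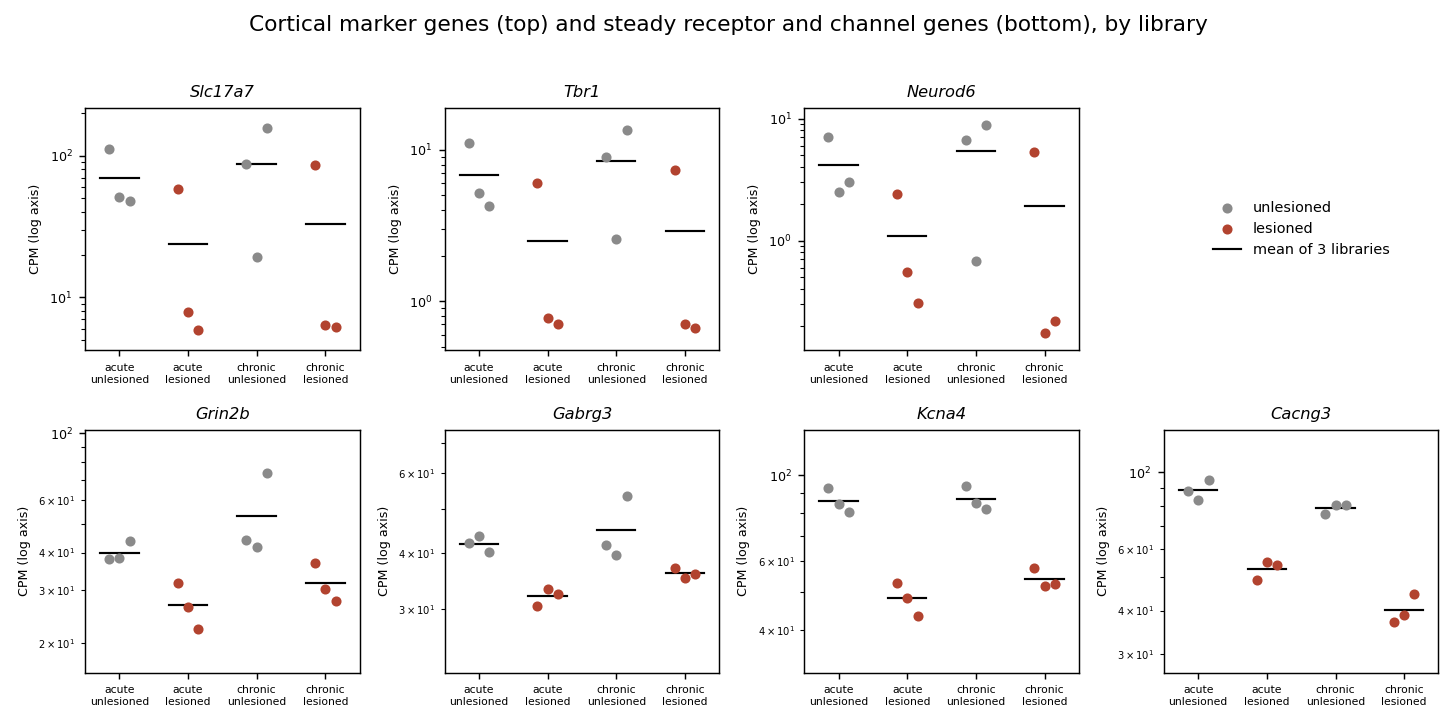
CPM on a log axis, 1 point per library and a bar at the mean of each group of 3, for 3 cortical marker genes in the top row and 4 steady genes in the bottom row. The first lesioned library of each treatment lies among the unlesioned libraries for Slc17a7 and Tbr1 and among or just below them for Neurod6, whereas for Grin2b, Gabrg3, Kcna4 and Cacng3 it lies below every unlesioned library of its treatment, which the rule for steady genes fixes.

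Genes of vesicle release were split. Of 28 tested, 6 were steady and higher and 3 steady and lower. Syt7, a calcium sensor of slow release, was at 160.2, 157 and 151 against 221, 218 and 225 CPM and 139.8, 157 and 166 against 275, 273 and 266 CPM, a rise of 0.66 ± 0.06. Syp, encoding synaptophysin, and Syt4 rose by 0.52 ± 0.09 and 0.51 ± 0.08, and Sv2c, Syt5 and Vamp2 by 0.35, 0.32 and 0.25. Unc13c, a priming factor, was lower, at 231, 255 and 240.1 against 169, 148 and 118 CPM and 203, 315 and 261 against 109.9, 179 and 148 CPM. The common change of Unc13c was -0.78 ± 0.13, and Sv2b and Syt1, the sensor of fast release, fell by 0.44 and 0.20.

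The study asked about Polycomb-silenced genes, and 4 of 28 genes of the Polycomb complexes and the demethylases of histone H3 lysine 27 were steady (14.3%, against 11.6% of all genes tested). Kdm6b (chr11:69212010-69227177), which encodes the demethylase Jmjd3, was at 33.8, 41.0 and 41.0 CPM on the unlesioned and 229.6, 230.1 and 255 CPM on the lesioned side after acute L-DOPA. After chronic L-DOPA it was at 36.0, 30.3 and 34.0 and 319.7, 351 and 315 CPM. The rise of 2.96 ± 0.12 (adjusted p = 3.86e-10) was within the range of the immediate early factors, and Kdm6a, encoding the related Utx, had a change of -0.17 and was not steady. Rbbp7, a histone-binding subunit of PRC2, was at 89.1, 89.2 and 90.4 against 106, 118 and 111 CPM and 90.8, 83.3 and 83.7 against 137, 131 and 136 CPM, a small rise of 0.48 ± 0.06. Cbx8, a PRC1 subunit that binds trimethylated lysine 27, rose by 0.50 ± 0.08 at 8.72 to 14.8 CPM. Ezh1, a methyltransferase of PRC2, was at 63.1, 62.8 and 63.6 against 62.7, 59.1 and 57.8 CPM and 77.2, 69.1 and 69.3 against 57.1, 48.8 and 55.2 CPM, so that the acute groups nearly touched, and it fell by 0.25, which was not called with the cortical covariate (-0.19, adjusted p = 0.200). Suz12, Eed and Ezh2, the core of PRC2, were not steady, with changes of -0.01, -0.05 and 0.36.

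Protein folding and sterol synthesis held steady rises. Of 23 chaperone genes 7 were steady and higher, with a list median of 0.40. Hspa8, the constitutive Hsc70, was at 222, 214 and 171 against 331, 335 and 254 CPM and 129, 179.5 and 139 against 202, 258 and 210.5 CPM, a rise of 0.59 ± 0.10 with values of 0.59 and 0.58 in the 2 treatments. Snord14 genes and LOC624853 lie within the Hspa8 interval. Dnaja1, an Hsp40 cochaperone, rose by 0.52 ± 0.09, and Dnajb1 and Dnajb5 by 2.59 ± 0.39 and 1.36 ± 0.27 but with opposite preference: Dnajb1 went from 109.9, 77.1 and 57.0 to 1261, 994 and 797 CPM after acute and from 51.6, 72.2 and 44.4 to 108, 249 and 121 CPM after chronic L-DOPA. Dnajb5 went from 166, 172 and 181 to 211, 243 and 248 CPM and from 121, 126 and 131 to 575, 622 and 651 CPM. Of 16 sterol synthesis genes 3 were steady and higher, among them Pmvk and Dhcr7. Pmvk, a kinase of the mevalonate pathway, was at 17.5 to 21.1 CPM on the unlesioned and 25.3 to 36.4 CPM on the lesioned side. The common changes of Pmvk and Dhcr7 were 0.65 ± 0.09 and 0.39 ± 0.08, and Dhcr7 was at 0.34 (adjusted p = 0.052) with the cortical covariate.

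Of 31 proteasome subunits 1 was steady, Psmd11, which fell by 0.16, and of 74 oxidative phosphorylation subunits 1 was steady, Ndufa6, with a rise of 0.15 that was not called with library totals (adjusted p = 0.210) or without the GC trend (adjusted p = 0.373). Of 8 genes of dopamine synthesis, transport and breakdown only Maoa, monoamine oxidase A, was steady, at 26.4, 27.1 and 27.3 against 32.7, 30.0 and 30.2 CPM and 30.7, 31.0 and 30.6 against 31.5, 35.2 and 34.9 CPM, and its rise of 0.17 was not called with library totals (adjusted p = 0.156). With the cortical covariate Psmd11 (-0.17, adjusted p = 0.115), Maoa (0.15, adjusted p = 0.149) and Ndufa6 (0.15, adjusted p = 0.151) missed the threshold with log2 fold changes close to those without it. Of 77 cytosolic ribosomal protein genes 8 were steady and higher (10.4%) and 0 lower. Among all genes tested 5.51% were steady and higher and 11.6% steady in either direction. Of the 8, 6 passed with library totals and 5 of the 7 that could be tested with the GC trend removed. The largest changes were those of Rpl21 at 1.46 ± 0.11 and Rpl10 at 0.88 ± 0.13. Their levels of 2.67 to 11.8 and 1.49 to 4.31 CPM are below that of Rps2, at 31.3 to 42.9 CPM, and since near-identical copies of these genes exist, the share of reads that each received is uncertain. Of 18 cyclic nucleotide phosphodiesterases 2 were steady (11.1%, against 11.6% of all genes tested). Pde1c was higher and Pde7b, a cAMP phosphodiesterase of the striatum, lower. Pde1c was at 26.9, 26.9 and 24.1 against 36.8, 37.2 and 35.1 CPM and 31.9, 26.2 and 35.9 against 97.7, 80.6 and 87.8 CPM, and Pde7b, with several other transcripts annotated within it, at 235, 249 and 272 against 192, 207 and 188 CPM and 262, 232 and 268 against 208, 170.1 and 209.6 CPM. The common changes were 1.00 ± 0.16 and -0.37 ± 0.07.

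Of 10 astrocyte markers Gfap and Vim, the intermediate filaments of reactive astrocytes, were steady and higher. Gfap was at 83.2, 72.4 and 77.4 against 241, 138 and 171 CPM after acute and 53.5, 94.0 and 54.2 against 188, 325 and 274 CPM after chronic L-DOPA, a rise of 1.60 ± 0.20, and Vim rose by 1.11 ± 0.13. The other astrocyte markers were not steady, and the list's summed level was 2694 to 2948 against 2987 to 3834 CPM after acute and 2641 to 3095 against 3186 to 3311 CPM after chronic L-DOPA. Of the 12 microglial markers 0 were steady and 2 were called higher, and their summed level was 566 to 588 against 624 to 743 CPM after acute L-DOPA, without overlap, and 381 to 492 against 402 to 519 CPM after chronic L-DOPA, with overlap. Of the 10 oligodendrocyte, 6 oligodendrocyte precursor, 10 endothelial and mural, 5 blood, 6 choroid plexus and ependymal and 6 cholinergic interneuron markers 0 were steady, and of 8 markers of GABAergic interneurons 1 was, Npy.

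Wnt8b, a Wnt ligand, was at 1.27, 1.62 and 2.62 against 0.216, 0.387 and 0.484 CPM and 2.53, 1.36 and 2.32 against 0.165, 0.0879 and 0.132 CPM and had the largest fall of the steady genes, -2.99 ± 0.34. The other 2 that were lower by over 4 fold, named after their values were seen, were Ifi27l2b at -2.72, with a mean of 0.446 CPM, and the unnamed transcript AK081443 at -2.50, with a mean of 4.28 CPM. Clspn, an adaptor of the DNA replication checkpoint, was at 22.2, 22.8 and 26.8 against 11.6, 14.7 and 10.8 CPM and 18.9, 21.5 and 17.7 against 4.83, 4.57 and 5.10 CPM. Ptpn7, a tyrosine phosphatase that binds MAP kinases, was at 15.5, 13.5 and 17.0 against 5.37, 6.90 and 6.64 CPM and 11.9, 11.4 and 11.6 against 4.72, 3.74 and 4.88 CPM. Both were lower in every lesioned library, with log2 fold changes for Clspn of -1.43 ± 0.16 and for Ptpn7 of -1.33 ± 0.09, the latter at -1.29 after acute and -1.40 after chronic L-DOPA. Otof, Il20ra and Fxyd7 changed by -1.30 ± 0.20, -1.32 ± 0.15 and -1.25 ± 0.22, encoding the calcium sensor otoferlin, a subunit of the interleukin-20 receptor and a regulator of the sodium pump. Col17a1, encoding a collagen, and Fam188b2 changed by -1.42 ± 0.24 and -1.60 ± 0.25 at levels of at most 2.32 and 3.01 CPM.

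Small steady rises are the changes that a threshold on fold alone would pass over. Of the 541, Ctsl (chr13:64464051-64471614), encoding the lysosomal protease cathepsin L, had the smallest p: it was at 66.6, 68.7 and 66.1 against 99.5, 99.6 and 95.9 CPM after acute and 68.3, 68.7 and 65.6 against 93.1, 88.1 and 95.4 CPM after chronic L-DOPA. All 6 unlesioned libraries lay within 65.6 to 68.7 CPM and all 6 lesioned libraries within 88.1 to 99.6 CPM, with a change of 0.50 ± 0.04 (adjusted p = 2.63e-06). Slc3a2, the heavy chain of amino acid transporters of the cell surface, was at 66.8, 66.6 and 67.2 against 87.1, 87.3 and 84.2 CPM and 66.8, 72.8 and 68.9 against 99.7, 97.9 and 94.3 CPM, a change of 0.43 ± 0.05. Bcl2l13, a mitochondrial relative of Bcl2, was at 46.2, 44.8 and 46.8 against 62.8, 60.1 and 63.3 CPM and 51.4, 50.1 and 51.3 against 64.7, 66.4 and 65.5 CPM, a change of 0.40 ± 0.04 (adjusted p = 1.28e-05). Transcripts of Bid and unnamed clones overlap it. Ube2b, a ubiquitin-conjugating enzyme, and Arih2, a ubiquitin ligase, rose by 0.43 ± 0.05 and 0.54 ± 0.06. Ube2b was at 105 to 161 CPM on the unlesioned and 150.0 to 200.0 CPM on the lesioned side, where the acute libraries were the higher on both sides, so that the groups separate within each treatment and not across them. Yap1, the coactivator of Hippo signalling, was at 24.9, 27.8 and 24.0 against 39.4, 37.5 and 34.8 CPM and 23.5, 25.4 and 23.9 against 37.8, 32.7 and 32.8 CPM, a rise of 0.52 ± 0.06. Tmem66, a regulator of store-operated calcium entry, Ptpn12, a tyrosine phosphatase, Arpc2, of the actin-nucleating Arp2/3 complex, and Ing1, a reader of histone methylation, rose by 0.47, 0.54, 0.43 and 0.58, and Ccdc64, a dynein adaptor, and Ivns1abp by 0.48 and 0.50.

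**Figure D4:**
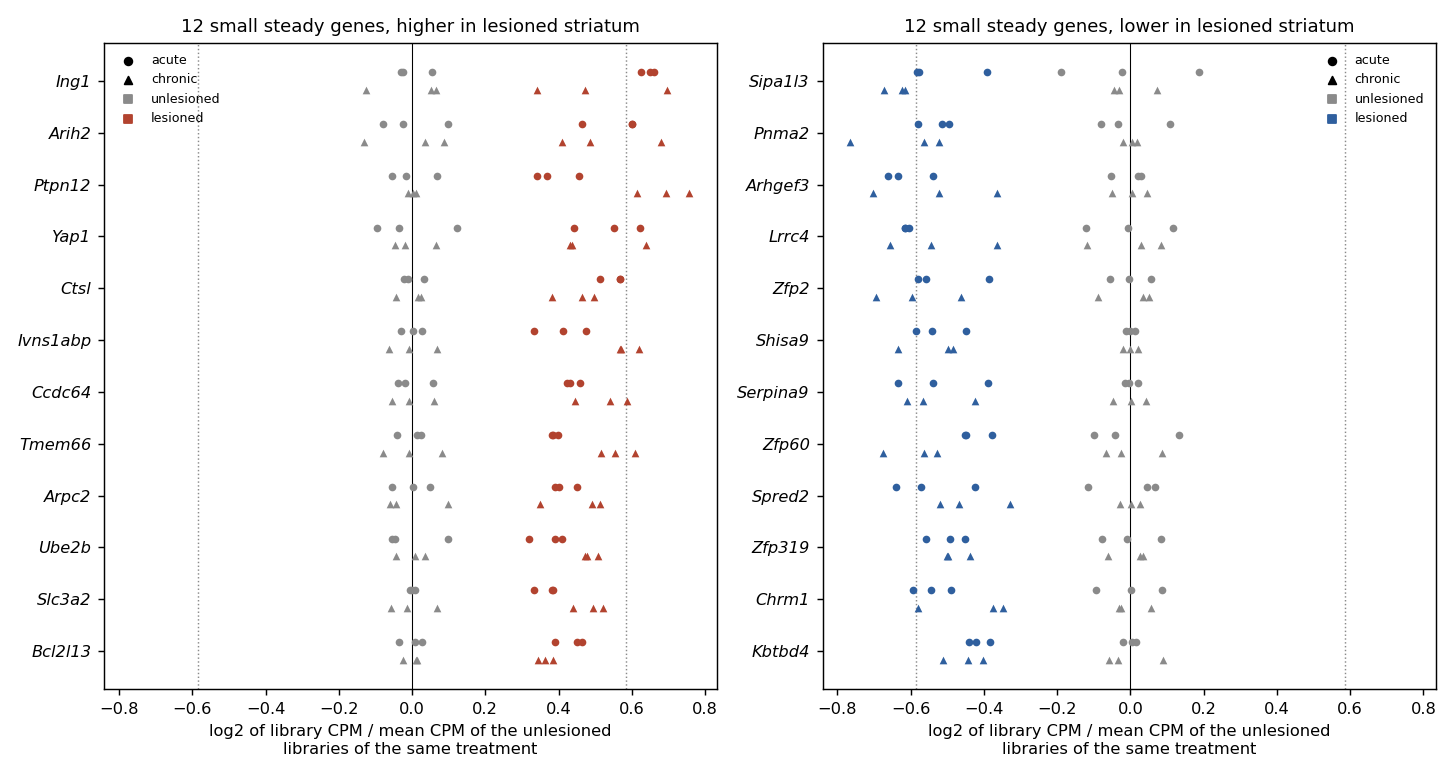
Log2 ratio of the CPM of each library to the mean of the unlesioned libraries of its treatment, for 12 small steady genes that were higher and 12 that were lower; circles are acute, triangles chronic, grey unlesioned, red or blue lesioned, and dotted lines mark 1.5 fold. Lesioned and unlesioned points of a gene and treatment do not overlap, and the coloured points lie mostly within the dotted lines. The rule for small steady genes fixes the first and largely the second.

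Of the 1021 small steady falls, that of Shisa9 (chr16:11984206-12270997) had the smallest p. It encodes an auxiliary protein of AMPA receptors and was at 113, 112 and 114 against 75.4, 77.7 and 82.8 CPM after acute and 91.6, 94.3 and 92.7 against 65.8, 66.4 and 59.8 CPM after chronic L-DOPA. The unlesioned libraries of each treatment lay close together and above all lesioned ones of it, and the change was -0.53 ± 0.05 (adjusted p = 1.77e-06). Lrrc4, a postsynaptic adhesion protein, was at 60.7, 56.1 and 66.2 against 40.1, 39.8 and 39.8 CPM and 65.4, 58.9 and 67.8 against 49.7, 40.6 and 43.9 CPM, a change of -0.56 ± 0.06. Arhgef3, an activator of RhoA, was at 98.5, 98.0 and 93.0 against 61.0, 66.4 and 62.1 CPM and 124, 121 and 116 against 93.5, 73.9 and 83.9 CPM, a change of -0.57 ± 0.06, and Sipa1l3, of a family that acts on Rap, fell by 0.58. Arhgef3 stood higher in the chronic than in the acute libraries of each side. The zinc finger genes Zfp319, Zfp2 and Zfp60 changed by -0.49 ± 0.05, -0.54 ± 0.06 and -0.51 ± 0.06. Zfp319 was at 24.6, 25.8 and 27.5 against 19.0, 18.4 and 17.6 CPM and 24.2, 25.8 and 25.9 against 17.9, 18.7 and 17.9 CPM. Pnma2 and Serpina9 changed by -0.57 ± 0.05 and -0.53 ± 0.05, and Kbtbd4, whose gene lies across Ndufs3 and Ptpmt1, by -0.43 ± 0.05.

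At the edge of the order rule, Ston2 was inside by the smallest gap among genes at 10 CPM or more, with its highest acute unlesioned library at 27.3385 and its lowest acute lesioned library at 27.3390 CPM, and Crybg3 was outside, with its lowest acute unlesioned library at 23.784 and its highest acute lesioned library at 23.787 CPM. At the edge of the p rule, Larp1 was inside (adjusted p = 0.0498) and Dpm1 outside (adjusted p = 0.0501). Of the genes called, 1661 lacked the order, and 156 genes had the order without the call.

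The size of the change was compared between treatments with an interaction term. It was called for 1053 of the 20664 genes (5.1%). A replicate block within each treatment was also run, because same-numbered samples of the 2 sides varied together. With the block the interaction term was called for 2755 genes, and the cause of this larger number was not tested. It was called for 695 genes without acute unlesioned replicate 3 and for 1637 without chronic lesioned replicate 2, the extremes of leaving out each library. Of the 2396 steady genes 242 (10.1%) were called, or 416 with the block, and 198 of the 242 had the larger change after chronic L-DOPA. Examples with a larger change after chronic L-DOPA were Chga, at 0.64 and 1.79 on the log2 scale, and Syp, at 0.22 and 0.82. Drd1a and Chrm4 were among the 44 with the smaller change after chronic L-DOPA, at -2.31 and -1.33 and at -1.75 and -0.60. For 1383 steady genes (57.7%), 1254 of them small, the 95% interval of the difference between treatments lay within 1.5 fold in either direction, in the fit without the block. The rule for small steady genes, with the same direction in both treatments and a common change under 1.5 fold, favours a small difference. The share over all genes tested was not computed, so the count does not measure how equal the 2 effects are. Ctsl had a difference of -0.10 with an interval of -0.28 to 0.07, Shisa9 -0.01 (-0.20 to 0.17) and Kcna4 0.15 (-0.11 to 0.41). For Fos the interval was wider, -0.19 to 0.65, around a difference of 0.23.

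**Figure D5:**
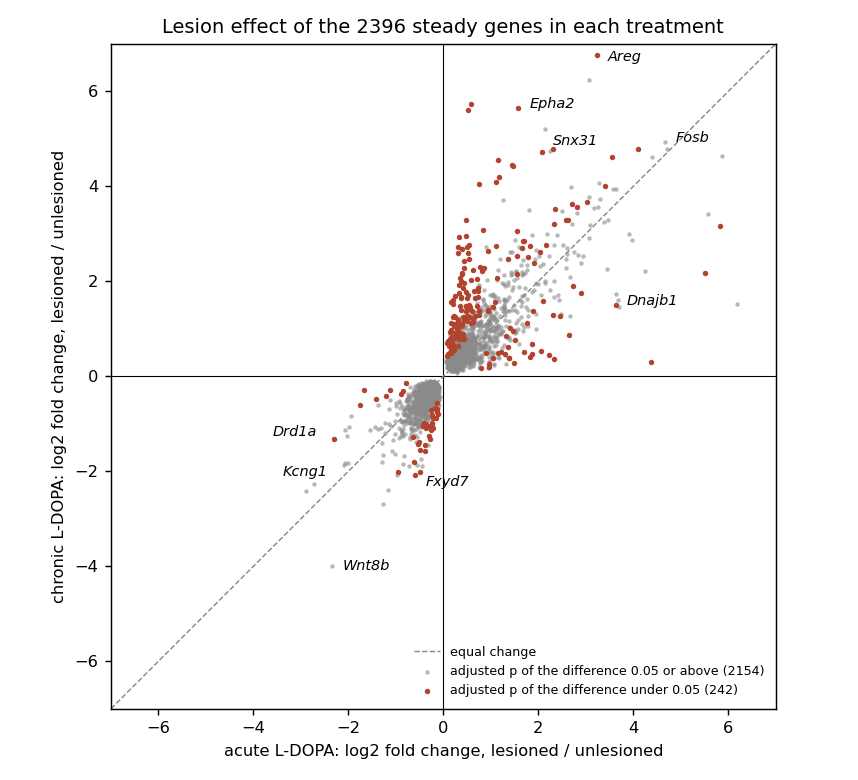
Log2 fold change of lesioned over unlesioned striatum after acute L-DOPA on the x axis and after chronic L-DOPA on the y axis for the 2396 steady genes; red points are the 242 genes with an adjusted p under 0.05 for the difference between treatments, and the dashed line marks equal change. All points lie in the 2 quadrants of equal sign, which the rule fixes, and most red points that were higher lie above the line.

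Both treatments fitted alone called only part of the steady genes. The lesion effect was called for 3122 genes (15.1%) after acute and 2648 (12.8%) after chronic L-DOPA. Of the 2396 steady genes, 1498 were called after acute L-DOPA, 1361 after chronic L-DOPA, 979 in both and 516 in neither, and of the 1562 small ones 416 were called in both and 440 in neither. The libraries of 7160 genes (34.6%) did not overlap after acute and of 6477 (31.3%) after chronic L-DOPA.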

How the data were processed

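Total RNA of 12 striatal samples was sequenced by the authors on a Genome Analyzer II, mapped to mm9 with the Genomatix Mining Station and deposited as raw read counts for 189660 transcripts, and the authors tested triplicates with DESeq. Whether counting used strand or kept reads with several matches is not given in the sources used here, so counts of overlapping transcripts may share reads. Normalised values, fold changes and p-values of the authors' own comparisons are also in the deposited tables and were not used, 48 columns of per-sample values among them. Transcripts without a symbol (296, 0.0485% of counts) were left out, and the transcript with the highest mean CPM stood for each symbol. 25 symbols had been turned into dates by a spreadsheet.

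Counts were filtered with filterByExpr, scaled by trimmed means of M values and fitted in edgeR 4.0.16 (limma 3.58.1, R 4.3.3) with the quasi-likelihood test on a model of treatment plus lesion side, and for the treatment difference with their interaction. Adjusted p-values are Benjamini-Hochberg over all 20664 genes. Errors after ± are standard errors of log2 fold changes, and CPM are given by replicate number. The code was tested on simulated data. Same-numbered samples of the 2 sides varied together (correlation of deviations 0.366, 0.285 and 0.158 after acute and 0.408, 0.485 and 0.150 after chronic L-DOPA, over 17327 genes), each above 0.1, so a replicate block was run as an alternative beside DESeq2 1.42.0, other scalings and filters, and leaving out each library. Pairs of different number had -0.426 to 0.151. The highest, chronic lesioned 1 with chronic unlesioned 3, was as high as the same-numbered chronic pair 3. A GC and length correction and a cortical covariate, the mean log2 level of 10 cortical marker genes, were added after seeing the data.

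The members and gene lists were chosen with earlier results of these data known, so neither is independent evidence. Named genes were the 12 largest rises and falls among steady genes with an ordinary symbol (no cDNA clone, accession, Rik, Gm or LOC name) at a mean of 1 CPM or more, the 12 such small rises and falls with the smallest p at 10 CPM or more, and up to 4 steady genes of each list with the smallest p. Other genes were named after their values were seen. A few genes that the rule or the lists hold are not reported here. Promoters came from RefSeq (GRCm38.p6), where 10778 of 13309 tested genes with an ordinary symbol off chromosome 18 were matched by gene ID or symbol, and gene positions from the table (mm9).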

Additional observations from a re-analysis of the deposited data

Results flagged for a closer look

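Of the 102 named genes, 25 had a lesion effect that differed between treatments by the interaction term (edgeR, adjusted p under 0.05 over all genes), against 5.1% of all genes tested and 10.1% of the steady genes. The values here are the log2 change after chronic minus that after acute L-DOPA. Among genes that rose, the change was larger after chronic L-DOPA for Epha2 (4.07), Areg (3.53), Snx31 (2.67), Dnajb5 (1.86), Dusp1 (1.17), Chga (1.15), Dusp14 (1.14), Nfkbid (1.08), Scg2 (1.06) and Pde1c (1.02). Smaller differences in the same direction were those of Gadd45b (0.77), Egr2 (0.69), Kdm6b (0.67), Npy (0.66), Jun (0.61), Syp (0.60), Vgf (0.55), Dhcr7 (0.44) and Rbbp7 (0.33). Dnajb1 and Dusp6 also rose in both treatments but less after chronic L-DOPA, with differences of -2.13 and -1.19. Of the genes that fell, Fxyd7 (-1.47) and Clspn (-1.04) fell further after chronic L-DOPA, and Drd1a (0.99) and Chrm4 (1.16) fell less. Each of the 25 had all 3 lesioned libraries beyond all 3 unlesioned ones in both treatments, which the choice of members fixes.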

How the results depend on the processing

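All 2396 steady genes kept their direction in every alternative except with counts summed over the transcripts of a symbol, where 2394 did, and 1918 of them could be tested in the GC alternatives. The order rule for steady genes leaves little room for a change of direction, and the threshold of 0.01 uses the same fit. A threshold of 0.01 gave 2062 called, 1016 small steady and 458 interaction genes, against 4057, 1562 and 1053. The cortical covariate gave 1944 called, 1558 steady and 863 small steady genes. Leaving out each library in turn gave 3278 to 3972 called, 2369 to 2769 steady, 1512 to 1824 small steady and 695 to 1637 interaction genes, the lowest of the last without acute unlesioned replicate 3 and the highest without chronic lesioned replicate 2. Without the filter on low counts 1913 interaction genes were called. With the replicate block, which pairs the sides by number, 2755 interaction genes were called, and 4113 called, 2336 steady and 1511 small steady genes remained close to the fit without it; Ndufa6 was the 1 named gene that lost its call (adjusted p = 0.0597). Of 102 named genes, 100 of which could be tested in the GC alternatives (not Fam188b2 and Rpl41), 95 kept their call in every alternative run for them, 7 lost it in some (Maoa, Ndufa6, Psmd11, Ezh1, Dhcr7, Gabrg3 and Grin2b), 0 changed sign, and 99 kept it without any single library. The cause of these differences was not tested. Depth limits genes near 1 CPM, such as Wnt8b and Col17a1, for which a library holds few reads.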

Other observations

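Th, outside the steady set, differed between the treatments. It encodes the enzyme that makes L-DOPA from tyrosine and was at 7.29, 8.73 and 9.68 CPM on the unlesioned and 5.08, 6.85 and 8.49 CPM on the lesioned side after acute L-DOPA. After chronic L-DOPA it was at 8.39, 9.39 and 8.60 CPM against 46.5, 39.4 and 52.8 CPM. The common effect of Th did not pass the test (log2 fold change 1.13 ± 0.40, adjusted p = 0.0609), and its interaction did (edgeR, 2.73, adjusted p = 6.3e-06).

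Dusp5, a nuclear phosphatase of Erk, was steady but of unequal size, at 15.8, 18.9 and 20.0 against 46.6, 40.4 and 34.9 CPM after acute and 16.1, 13.5 and 12.4 against 339, 293 and 354 CPM after chronic L-DOPA. Its interaction was 3.40 (edgeR, adjusted p = 7.96e-08). Slc35d3 went the other way, with a change of -1.42 after acute and -0.47 after chronic L-DOPA (interaction 0.96, adjusted p = 0.0122), as Drd1a and Chrm4 did.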
